A study of Mus musculus with 8 samples.

Results

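The genes of muscle glycolysis and of the creatine kinase system were examined for nearby myogenin and p300 ChIP-seq peaks in C2C12 myoblasts differentiated with or without bexarotene. The 8 genes were Ckm, Ckb, Pygm, Pfkm, Aldoa, Pgam2, Eno3 and Ampd1, and every called interval that lay within 50 kb of one of the gene bodies (GENCODE vM1, mm9) was taken. This gave 24 intervals of the 43759 in the 4 peak lists, at 7 of the 8 genes. C2C12 myoblasts are an established mouse line (C3H strain) whose cells fuse into myotubes once serum is lowered. The cells were kept for 24 h in differentiation medium with 2% horse serum, either alone (Ctl) or with 50 nM bexarotene (Bex), an agonist selective for the retinoid X receptor (RXR). Myogenin, a transcription factor of terminal muscle differentiation, and p300, a histone acetyltransferase, were each immunoprecipitated from 1 library per condition. The lists were named Myog_Ctl, Myog_Bex, p300_Ctl and p300_Bex. Both conditions came from the same line at the same time of differentiation, and the agonist is the planned difference between them. With 1 library per condition, they also differ by culture, immunoprecipitation and library.

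Contracting muscle spends ATP faster than oxidation can replace it, and these 8 genes encode enzymes that fill the gap. Creatine kinase moves the phosphate of phosphocreatine onto ADP: Ckm encodes the muscle form and Ckb the brain form, which myoblasts carry before they mature. Pygm encodes muscle glycogen phosphorylase, which releases glucose 1-phosphate from glycogen. Pfkm (phosphofructokinase), Aldoa (aldolase A), Pgam2 (phosphoglycerate mutase) and Eno3 (beta-enolase) encode muscle forms of glycolytic enzymes, and Ampd1 encodes the muscle AMP deaminase, which removes AMP during heavy work. Myogenin binds the E-box, a CANNTG sequence. Forms with CAGCTG as well as those with the sequence CACCTG, which reads as CAGGTG on the opposite strand, are preferred by the MyoD family and are the E-boxes counted here. The upstream enhancer of Ckm is a textbook E-box target of that family.

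The lists held 5912 (Myog_Ctl), 6642 (Myog_Bex), 22051 (p300_Ctl) and 9154 (p300_Bex) intervals. They give positions only, so the depth behind an interval is unknown, and an absent interval says that none was called and not that the factor was absent. Since each condition has 1 library, the spread between cultures is unknown and the conditions were not tested against each other. The ranges given after shares are 95% Wilson intervals and reflect the number of regions counted, not biological error. They treat regions as independent, although several can lie near the same gene, and so may be too narrow. Of 8 genes of differentiating myoblasts (Myod1, Myog, Des, Chrna1, Acta1, Tnnt2, Mybph and Myh3), 8 had a control myogenin interval within 50 kb and 7 had one with bexarotene. The shares of all protein-coding genes were 32.4% and 32.9%. These 8 genes were picked for this description, and the paper itself reports myogenin at Mybph in both conditions. Their count is therefore not an independent check of the lists.

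The sequences on which the description turns are given first, 5′ to 3′ on the strand of the named gene in mm9, in lower case with these E-boxes in capitals. The first comes from the only myogenin region called in both conditions, 24 kb upstream of Ckb on the minus strand. It is the central 200 bp of the control interval of that region (chr12:112934457-112934656). The others are the bexarotene-only interval inside Eno3 (chr11:70472006-70472223, plus strand), the control-only interval at the start of Pfkm (chr15:97923364-97923535, plus strand), and the p300 interval nearest to Aldoa (chr7:133936016-133936174, minus strand), the last 3 without an E-box.
Ckb shared myogenin region: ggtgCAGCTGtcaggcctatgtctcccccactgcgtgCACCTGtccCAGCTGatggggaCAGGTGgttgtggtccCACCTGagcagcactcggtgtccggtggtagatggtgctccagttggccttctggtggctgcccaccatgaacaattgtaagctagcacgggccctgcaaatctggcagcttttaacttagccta
Eno3 bexarotene-only myogenin interval: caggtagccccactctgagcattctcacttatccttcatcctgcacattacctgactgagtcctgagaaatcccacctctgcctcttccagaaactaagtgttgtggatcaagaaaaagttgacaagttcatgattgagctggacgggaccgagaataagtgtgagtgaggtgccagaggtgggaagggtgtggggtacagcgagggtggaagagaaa
Pfkm control-only myogenin interval: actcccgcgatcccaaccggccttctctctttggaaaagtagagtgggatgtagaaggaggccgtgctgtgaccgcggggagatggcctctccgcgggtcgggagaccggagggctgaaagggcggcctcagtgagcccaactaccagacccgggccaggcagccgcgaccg
Aldoa control-only p300 interval: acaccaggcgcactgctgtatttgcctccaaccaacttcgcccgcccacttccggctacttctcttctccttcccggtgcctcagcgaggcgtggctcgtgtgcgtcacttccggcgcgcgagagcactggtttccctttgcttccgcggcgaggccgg

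Single E-boxes next to the annotated starts are shown with 10 bases on either side, because at these genes most such E-boxes lay outside every called interval. Eno3 had one just downstream of its first start (chr11:70470716-70470721) and one at an internal start (chr11:70471268-70471273), both inside a bexarotene-only myogenin interval, and another farther into the gene (chr11:70471679-70471684) outside all lists. Pgam2 had one at almost the same place after its start (chr11:5703722-5703727) and Ckm one in its upstream flank (chr7:19995290-19995295), neither of them in a called interval.
Eno3 at +15: gacactgtccCAGCTGctacctagag
Eno3 at +567: ttagctccagCACCTGccttcttcgg
Eno3 at +978: cgattccgagCAGCTGtgcccagtgg
Pgam2 at +11: gccaagcaagCAGCTGccacctagag
Ckm at -1150: ccccccccaaCACCTGctgcctgagc

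Myogenin intervals lay near 4 of the 8 genes in control (Ckb, Pfkm, Pgam2 and Eno3), against 32.4% of 22350 protein-coding genes counted in the same way. With bexarotene they lay near 3 of the 8 (Ckb, Pygm and Eno3), against 32.9% of all genes. For p300 the control list had intervals near 4 of the 8 (Ckb, Aldoa, Pgam2 and Eno3), against 53.8%, and the bexarotene list near 2 of the 8 (Pgam2 and Ampd1), against 35.2%. The counts of the members are descriptions of 8 genes, and no list was tested against the background. The intervals numbered 7 in Myog_Ctl, 7 in Myog_Bex, 8 in p300_Ctl and 2 in p300_Bex, and 16 of the 24 had the smallest length that occurs in their list. The longer ones alone numbered 2, 2, 3 and 1. Merging overlapping intervals gave 13 myogenin regions and 10 p300 regions.

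**Figure D1:**
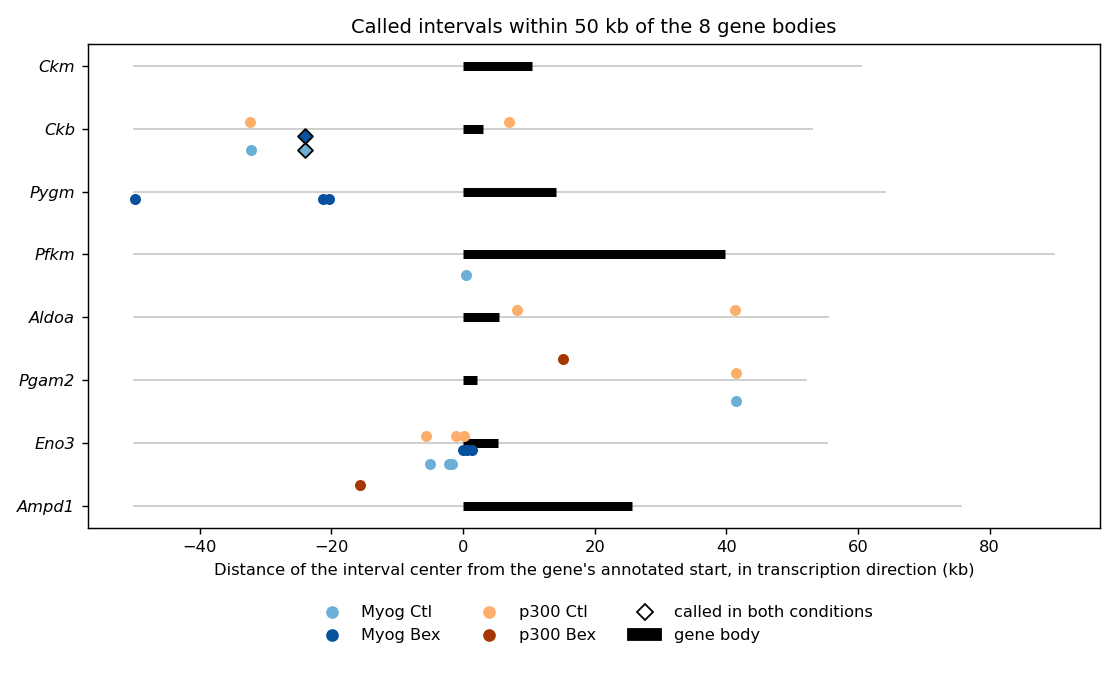
Called intervals within 50 kb of each gene body, by the distance of their center from the gene's annotated start in kb, with positive values in the direction of transcription; gray lines span the 50 kb windows. Points are single intervals colored by list, diamonds mark the myogenin region of Ckb called in both conditions, and Ckm has no point.

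The creatine kinase genes differed from each other, with 0 intervals at Ckm and 5 at Ckb. Ckm (ENSMUSG00000030399.1, chr7:19996443-20006932, plus strand) had no interval of any list within 50 kb, as was so for 36% of all protein-coding genes. Its nearest myogenin intervals lay 109887 bp from the gene body in control and 64784 bp with bexarotene, and its nearest p300 intervals 394771 and 396042 bp away. Intervals were sparser on chromosome 7 than in the genome as a whole in each list, with 1.41 against 2.24 per Mb in Myog_Ctl and 1.65 against 2.52 per Mb in Myog_Bex. Any bearing of this on Ckm was not tested. The window of Ckm held 247 E-boxes, the highest number of the 8 genes, and 12 of them lay within 1500 bp of its start, of which 4 were CAGCTG.

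Ckb (ENSMUSG00000001270.8, chr12:112907566-112910549, minus strand) had 2 myogenin intervals in control, 1 with bexarotene, 2 p300 intervals in control and 0 with bexarotene. The myogenin interval called in both conditions began at the same base in each list. It measured 321 bp in control (chr12:112934397-112934717) and 398 bp with bexarotene (chr12:112934397-112934794), in intergenic sequence 23848 bp from the gene body. It held 5 E-boxes, which in the direction of Ckb were separated by 27, 3, 7 and 10 bp, and it overlapped no p300 interval in either condition. Its nearest annotated start was that of Bag5, 16581 bp away from the center in the control list.

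The second control myogenin interval of Ckb (chr12:112942704-112942875) had the smallest length, 172 bp, and held no E-box. It overlapped a control p300 interval of 384 bp (chr12:112942753-112943136), whose part outside the overlap held 1 CAGCTG. Neither had a counterpart with bexarotene. The other p300 interval of Ckb, of 159 bp (chr12:112903436-112903594), was the nearest to the gene, 3972 bp beyond its 3′ end. Within 1500 bp of the start of Ckb there were 4 E-boxes, and 0 of them lay in a called interval.

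Pygm (ENSMUSG00000032648.8, chr19:6384399-6398459, plus strand) had 3 myogenin intervals with bexarotene and 0 in control. At least 1 bexarotene myogenin interval without a control one within 50 kb was found at 1 of the 8 genes, Pygm, and at 9.03% of all genes. All 3 measured 168 bp, the smallest length in that list, and held no E-box. One lay 394 bp upstream of a start of Men1 (chr19:6334501-6334668), near the edge of the window. The others lay around annotated starts of Sf1, 504 bp upstream of one (chr19:6363102-6363269) and 153 bp downstream of another (chr19:6363991-6364158), the latter in the untranslated region. The closest was 20241 bp from the body of Pygm, whose own start had 7 E-boxes within 1500 bp, 5 of them CAGCTG, and 0 in a called interval. No p300 interval lay within 265562 bp of the gene in control or within 439933 bp with bexarotene.

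Pfkm (ENSMUSG00000033065.6, chr15:97923020-97962878, plus strand) had 1 interval in all. It was a control-only myogenin interval of 172 bp, the smallest length, centered 430 bp downstream of the first annotated start of Pfkm and 386 bp downstream of that of Senp1, which is transcribed the other way. It held no E-box, and 67% of the bases within 100 bp of its center were G or C. It overlapped the body of Pfkm, which made Pfkm the 1 member with a control myogenin interval in the gene body, against 10.1% of all genes. The nearest bexarotene myogenin interval was 214674 bp away. Control myogenin intervals without a bexarotene one within 50 kb were found at 2 of the 8 genes, Pfkm and Pgam2, and at 8.45% of all genes.

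Aldoa (ENSMUSG00000030695.7, chr7:133938748-133944265, minus strand) had 2 control p300 intervals and no other. Both measured 159 bp, the smallest length, and held no E-box. One lay 110 bp upstream of the start of Ppp4c, 2574 bp from the 3′ end of Aldoa (chr7:133936016-133936174), and the other 114 bp upstream of the start of Mapk3 (chr7:133902922-133903080). The nearest myogenin intervals were 97244 bp away in control and 356923 bp away with bexarotene. Control p300 intervals without a bexarotene one occurred at 3 of the 8 genes (Aldoa, Ckb and Eno3) and at 21.6% of all genes.

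Pgam2 (ENSMUSG00000020475.3, chr11:5701643-5703736, minus strand) had 1 control myogenin interval, 1 control p300 interval and 1 bexarotene p300 interval. The control myogenin interval of 172 bp (chr11:5662193-5662364) and the control p300 interval of 212 bp (chr11:5662121-5662332) overlapped in the untranslated region of Urgcp, with their edges 39279 and 39311 bp from the body of Pgam2. The bexarotene p300 interval of 158 bp (chr11:5688463-5688620) was centered 9 bp from a start of Dbnl, and its edge lay 13023 bp from the body of Pgam2. None of the 3 held an E-box. Within 1500 bp of the start of Pgam2 there were 7 E-boxes, 0 of them in a called interval, and a pair of these, CAGCTG and CAGGTG, stood next to each other at -186 and -193.

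Eno3 (ENSMUSG00000060600.8, chr11:70470704-70476015, plus strand) carried 9 of the 24 intervals, with 3 in Myog_Ctl, 3 in Myog_Bex, 3 in p300_Ctl and 0 in p300_Bex. Its 6 myogenin regions were the most of any member, a number reached by 1 of the 8 and by 3.62% of all genes. Although both myogenin lists had intervals here, none overlapped between conditions, which held for 1 of the 8 genes and 6.46% of all genes. The 3 control intervals all lay upstream and the 3 bexarotene intervals all at or inside the gene, with the closest pair 1314 bp apart. This difference in position rests on 1 library per condition and was not tested.

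The control myogenin intervals of Eno3 lay within or upstream of the neighboring Pfn1, a profilin gene transcribed toward lower coordinates. The farthest, of 172 bp, the smallest length in that list, lay within Pfn1 and held 4 E-boxes. The other control intervals (chr11:70468420-70468591, 172 bp, and chr11:70468917-70469276, 360 bp) were centered 2198 and 1607 bp upstream of Eno3, 360 and 951 bp upstream of Pfn1, and held no E-box.

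The bexarotene myogenin intervals of Eno3 lay at its start or inside the gene, and those of 168 bp had the smallest length in that list. The first (chr11:70470590-70470757, 168 bp) covered the first annotated start, with its center 30 bp upstream, and held the CAGCTG at +15. The second (chr11:70471234-70471401, 168 bp) covered an internal start, with its center 20 bp downstream of it, and held the CACCTG at +567. The last (chr11:70472006-70472223, 218 bp) covered a coding exon, with its center at +1411, and held no E-box. Eno3 was the 1 member with a bexarotene myogenin interval in its body, against 10.3% of all genes.

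The p300 intervals of Eno3 were called in control alone, and those of 159 bp had the smallest length in that list. They measured 159 bp (chr11:70465039-70465197), 204 bp (chr11:70469524-70469727) and 159 bp (chr11:70470761-70470919) and were centered 5586 and 1078 bp upstream and 136 bp downstream of the first start. The last was centered in intron 1 and began 4 bp from the end of the bexarotene myogenin interval at the start, so the p300 interval of one condition and the myogenin interval of the other adjoined without overlapping. In the same condition the closest p300 and myogenin intervals, both in control, were 248 bp apart. Eno3 was the 1 member with a control p300 interval in its body, against 20.4% of all genes, and 0 of the 8 had a bexarotene p300 interval in the body, against 11.6%. The nearest bexarotene p300 interval was 94141 bp away.

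**Figure D2:**
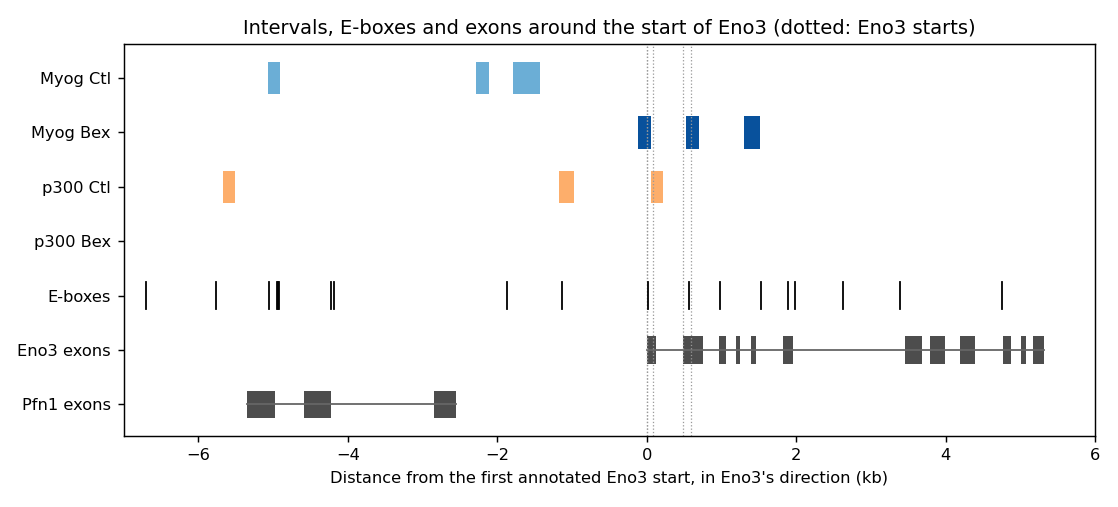
Intervals of the 4 lists, E-boxes and exons of Eno3 and Pfn1 against the distance from the first annotated Eno3 start in kb; bars span the called intervals, ticks are E-boxes and dotted lines are annotated starts of Eno3. The 3 control myogenin intervals lie to the left of the start and the 3 bexarotene intervals at or to the right of it; of the 19 E-boxes shown, 4 lie in Myog_Ctl intervals, 2 in Myog_Bex and 1 in p300_Ctl.

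Ampd1 (ENSMUSG00000070385.5, chr3:102877937-102903637, plus strand) had 1 interval, a p300 interval called with bexarotene (chr3:102862136-102862346, 211 bp). Its center lay 21 bp upstream of a start of Nras and 15696 bp upstream of the start of Ampd1, and it held no E-box. A bexarotene p300 interval without a control one within 50 kb occurred at 1 of the 8 genes and at 3% of all genes. The nearest myogenin intervals were 118554 bp away in control and 534655 bp away with bexarotene. Ampd1 had 3 E-boxes within 1500 bp of its start, 0 of them CAGCTG and 0 in a called interval.

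Considered by class, the 13 myogenin regions comprised 6 called in control only, 1 in both conditions and 6 with bexarotene only. The shared part was 7.69% (1.37 to 33.3), against 31.3% (30.4 to 32.2) of all 9553 myogenin regions. Of the 7 regions called with bexarotene, 6 were bexarotene-only (85.7%, 48.7 to 97.4), against 55% (53.8 to 56.1) in the whole lists. Of the 10 p300 regions 8 were control-only, 0 shared and 2 bexarotene-only. All 8 regions called in control were thus control-only (100%, 67.6 to 100), against 67.4% (66.7 to 68) of all control p300 regions. Intervals of the smallest length were common among the members, with 5 of 7 in Myog_Ctl, 5 of 7 in Myog_Bex, 5 of 8 in p300_Ctl and 1 of 2 in p300_Bex, against 54.8%, 50%, 34.3% and 48.9% of the whole lists. Among regions built from longer intervals alone, the bexarotene-only share was 50% (1 of 2) and the control-only share of p300 100% (3 of 3).

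By position, 10 of the 13 myogenin regions lay within 1 kb of a transcription start site (76.9%, 49.7 to 91.8), against 20.8% (20 to 21.7) of all myogenin regions and 23.8% of those within 50 kb of any protein-coding gene. Among the p300 regions 6 of 10 did so (60%, 31.3 to 83.2), against 12.5% (12.1 to 12.9) and 15.8%. Most of these starts were those of neighbors, such as Pfn1, Sf1, Men1, Senp1, Urgcp, Ppp4c, Mapk3, Dbnl and Nras. A member held the nearest start for 3 of 13 myogenin regions, all at Eno3 and all bexarotene-only, and for 3 of 10 p300 regions, 2 at Eno3 and 1 at Ckb. The windows were also rich in genes, with a median of 4.5 other protein-coding genes within 50 kb (10 at Eno3, 9 at Aldoa, 6 at Ckm), against 3 for all genes, and the part of this in the position of the regions was not tested. The regions are not independent of each other, since 6 of the 13 myogenin regions lay near Eno3 and 3 near Pygm.

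E-boxes within 50 bp of the center were found in 4 of the 13 myogenin regions (30.8%, 12.7 to 57.6), against 50.2% (49.2 to 51.2) of all myogenin regions, and the Wilson intervals overlap. The 4 were the shared region of Ckb, the interval in Pfn1 and the first pair of bexarotene intervals of Eno3. Overlap with a p300 interval of the same condition was found for 2 of 13 (15.4%, 4.33 to 42.2), those near Ckb and Pgam2, against 28.8% (27.9 to 29.7).

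**Figure D3:**
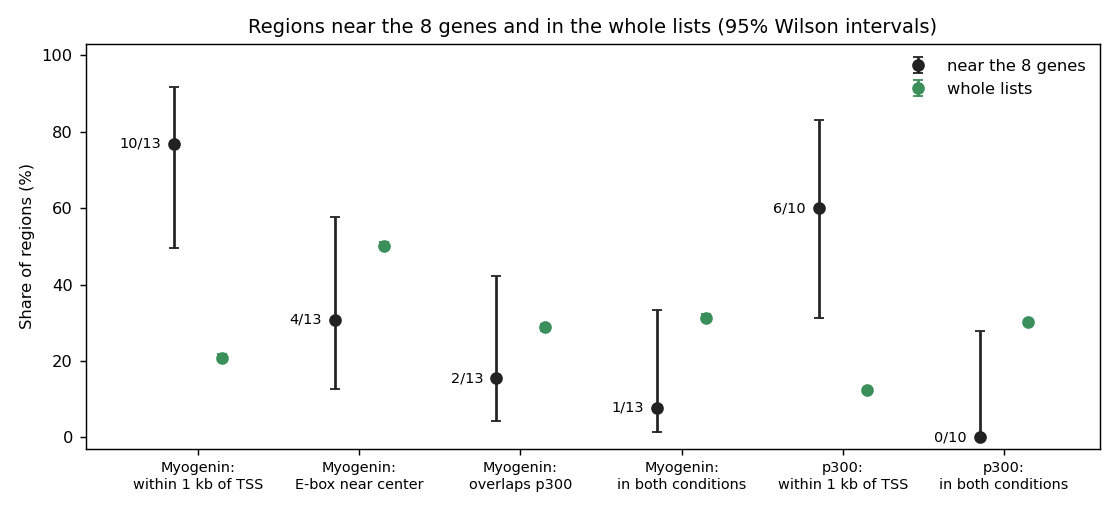
Share of regions in percent with each property, for regions within 50 kb of the 8 genes (black, with the counts beside the points) and for the whole lists (green). Bars are 95% Wilson intervals, which cover counting error only and treat regions as independent, although several lie near the same gene. The points for distance to a start site, 76.9% and 60%, lie above those of the lists, and the intervals for E-boxes and p300 overlap include the values of the lists.

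Within 100 bp of the interval centers, on both strands, the E-box occurred in 2 of 7 Myog_Ctl intervals (64.6% of the list), 3 of 7 Myog_Bex intervals (76.4%), 2 of 8 p300_Ctl intervals (32.3%) and 0 of 2 p300_Bex intervals (39%). The AP-1 sequence TGACTCA or TGAGTCA was in 3 of the 8 p300_Ctl intervals of the members (27.8% of the list), 2 of them near Eno3 and 1 near Ckb, and in 0 of their 7 Myog_Ctl (10.4% of the list), 0 of their 7 Myog_Bex (12.6%) and 0 of their 2 p300_Bex intervals (27.1%). The Runx sequence TGTGGT was in 1 of 7 Myog_Ctl (25.6%), 2 of 7 Myog_Bex (29.6%), 1 of 8 p300_Ctl (31.1%) and 0 of 2 p300_Bex intervals (32.7%). The Tead sequence GGAATG was in 2 of 7 (16.7%), 2 of 7 (19.1%), 2 of 8 (18.7%) and 0 of 2 (18.9%) of the same lists, and the Mef2 and CArG consensus sequences in 0 intervals of the members. The hexamer AGGTCA or GGGTCA bound by nuclear receptors was in 1 of 7 Myog_Ctl intervals (21.8% of the list), 2 of 7 Myog_Bex intervals (22.8%), 2 of 8 p300_Ctl intervals (18.4%) and 0 of 2 p300_Bex intervals (19.3%). The median share of G and C was 57.5% in Myog_Ctl, 50% in Myog_Bex, 59.8% in p300_Ctl and 70% in p300_Bex intervals of the members, against 51%, 50.5%, 47% and 47.5% in the lists. These matches describe the letters in the windows and not bound sites.

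Counted over whole windows, the 8 genes had 1390 E-boxes within 50 kb, of which 11 lay inside a myogenin interval, 6 at Eno3 and 5 at Ckb. Within 1500 bp of the annotated starts there were 47, and the 3 that lay in an interval of any list were all at Eno3: the CAGGTG at -1132 in a control p300 interval, and those at +15 and +567. Among the other E-boxes near the starts, the one at +11 of Pgam2 was closest in its flanks to the one at +15 of Eno3. It shared 12 of 20 flanking bases, against at most 9 for each of the rest.

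Other genes of energy metabolism gave a wider view. On a list of 51 further genes, 24 had a Myog_Ctl interval within 50 kb, 23 a Myog_Bex interval, 36 a p300_Ctl interval and 23 a p300_Bex interval, and 8 had none. These are 47.1%, 45.1%, 70.6% and 45.1% of the list, each above the share of all genes given earlier, and no test was made. The list was chosen with earlier results of these data known, and the number of neighboring genes in its windows was not compared with that of all genes. For myogenin the share of all genes was 32.4% in control and 32.9% with bexarotene. Glycolysis genes had myogenin intervals at 9 of 16 in control (56.2%) and 10 of 16 with bexarotene (62.5%). Glycogen genes had them at 7 of 15 (46.7%) and 3 of 15 (20%), the latter below the share of all genes. Among the creatine genes they lay near 2 of 5 in each condition (40%) and among the adenine nucleotide genes near 3 of 6 in each (50%). Among genes of sugar and lactate transport and control they lay near 3 of 9 in control (33.3%) and 5 of 9 with bexarotene (55.6%). In the same order of groups, p300 intervals lay near 12, 11, 2, 5 and 6 genes in control, against 53.8% of all genes. With bexarotene they lay near 9, 7, 1, 3 and 3 genes, against 35.2%.

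The 6 genes of this list with most intervals were named. Gapdh, the glycolytic dehydrogenase, had 26 (7, 8, 6 and 5 in the order Myog_Ctl, Myog_Bex, p300_Ctl, p300_Bex). Eno1, which encodes the widely expressed enolase, had 16 (4, 4, 6 and 2), and 2 of its myogenin regions were shared, where Eno3 had 0. Slc2a4, the insulin-regulated glucose transporter, had 16 (6, 5, 4 and 1), and as at Eno3 none of its myogenin regions was shared. Phkb, a subunit of phosphorylase kinase, had 15, all p300 (6 in control and 9 with bexarotene). None of its p300 regions was shared, against 30.1% shared among all p300 regions. Pgm5 had 13 (4, 7, 2 and 0) with 4 shared myogenin regions, and Ampd3, the AMP deaminase of red cells, had 11 (0, 2, 7 and 2).

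**Figure D4:**
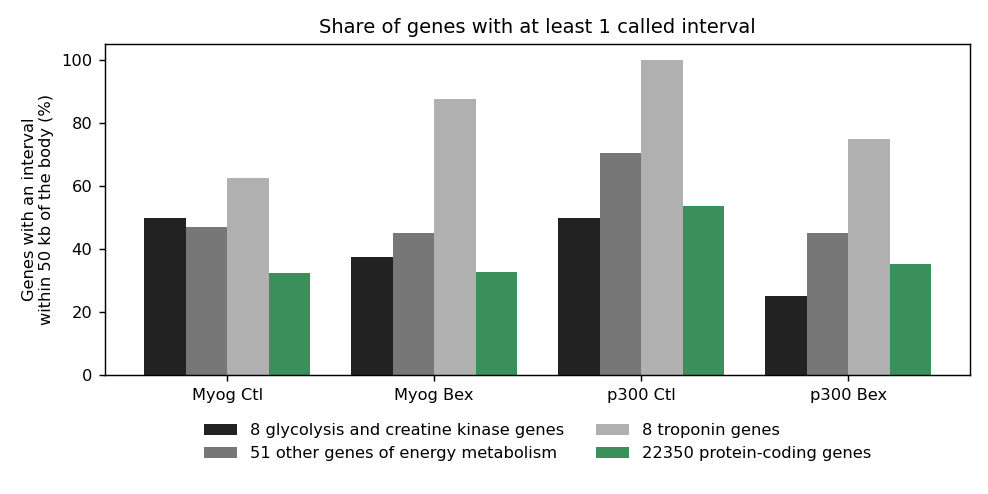
Percent of genes with at least 1 called interval within 50 kb of the gene body in each list, for the 8 glycolysis and creatine kinase genes, 51 other genes of energy metabolism, 8 troponin genes and all 22350 protein-coding genes. The 8 genes stand at 50%, 37.5%, 50% and 25%, and the troponin genes are higher in every list.

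The 8 troponin genes of the contractile apparatus, a comparison added after the values were seen, had intervals at 5, 7, 8 and 6 genes in Myog_Ctl, Myog_Bex, p300_Ctl and p300_Bex, where the metabolic genes had them at 4, 3, 4 and 2. Counting each interval once, the troponin windows held 10, 10, 17 and 6 intervals, against 7, 7, 8 and 2. Some troponin genes are neighbors and share intervals, so their counts by gene are not independent, and the difference was not tested.

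The all-zero pattern of Ckm was that of 8034 of 22271 other genes (36.1%). The patterns of Aldoa, Pfkm, Ampd1 and Pgam2 were those of 510 (2.29%), 395 (1.77%), 304 (1.37%) and 138 (0.62%). The pattern of Ckb was that of 51 (0.229%) and that of Pygm of 11 (0.0494%). For Eno3 there were 2 others with 3, 3, 3 and 0, Plekho1 and Zfand3, and 3230401D17Rik, with 3, 3, 3 and 1, was the first by symbol of the genes that differed by 1 interval in total. The likeness is one of counts over 4 libraries and not of positions.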

How the data were processed

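Of the 8 samples in the series, the 4 ChIP-seq libraries with a peak list were used, and the input and H3K27me3 libraries were not analysed here. The authors aligned myogenin reads with BWA and p300 reads with Bowtie to mm9, removed duplicates with Picard and ran HOMER findPeaks on each library, in its factor style with regions. The deposited lists hold the start and end of each peak, a position in bases with no count, score or input signal. Starts were taken as counted from 0, which the lists do not state, and are printed from 1.

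Intervals within 50 kb of a gene body were assigned to the member. Intervals of a factor overlapping by at least 1 bp were merged into regions. Distances run from centers to 46006 start records of protein-coding transcripts (GENCODE), and sequences came from the mm9 genome. The same counts over 22350 protein-coding genes were the background. The members and gene lists were chosen with earlier results of these data known. Every interval of the members is accounted for, and the position and sequence of 1 interval are not reported here. Of the other metabolic genes the 6 with most intervals were named, ties by symbol (Gamt, also with 11, came after Ampd3), and for Eno3 the 3 genes with the nearest counts, leaving out genes within 100 kb of a member. Alternatives changed the window, gene assignment, overlap, start records, distance limit, E-box window and letters, and interval length. The functions were tested on simulated data in 6 steps of 400 items, and all 6 were recovered. Python 3.11.15, numpy 2.4.6, pandas 2.3.3, scipy 1.17.1, pysam 0.24.0 and matplotlib 3.10.9 were used.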

Additional observations from a re-analysis of the deposited data

How the results depend on the processing

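No paired analysis was possible because each condition has 1 library, and for the same reason no replicate could be left out. Over 10 alternatives 66 values were recomputed, and 35 stayed within 1.5 times the count or within the Wilson interval, and 31 moved. The 31 moved under the size of the window, the assignment to the nearest start and the restriction to longer intervals. Counts are given in the order Myog_Ctl, Myog_Bex, p300_Ctl, p300_Bex. Within 10 kb of the gene bodies the intervals numbered 4, 3, 5 and 0, and genes with an interval 2 in Myog_Ctl, 1 in Myog_Bex and 0 in p300_Bex, while the bexarotene-only share of myogenin regions was 100% (3 of 3), their overlap with p300 0% (0 of 7) and the share of p300 regions within 1 kb of a start 40% (2 of 5). Within 100 kb there were 11 Myog_Ctl and 14 Myog_Bex intervals, 5 genes with a Myog_Bex interval and a p300 overlap of 9.09% (2 of 22). The share of myogenin regions within 1 kb of a start was 54.5% (12 of 22) at 100 kb and 85.7% (6 of 7) at 10 kb. With intervals kept where a member held the nearest start, the intervals numbered 0, 3, 3 and 0 and the genes 0, 1, 2 and 0. There the bexarotene-only share was 100% (3 of 3), p300 overlap 0% (0 of 3), E-boxes 66.7% (2 of 3) and the share within 1 kb of a start 100% for myogenin and 33.3% (1 of 3) for p300. Among intervals longer than the smallest of their list, the intervals numbered 2, 2, 3 and 1, genes with an interval 2 in Myog_Ctl and 1 in p300_Bex, the bexarotene-only share was 50% (1 of 2) and p300 overlap was 0% (0 of 3). Of the shares above, the p300 start shares of 40% and 33.3%, the myogenin start shares of 54.5% and 85.7%, the p300 overlap of 9.09% and the bexarotene-only share of 50% stayed within the Wilson intervals of the main values. The same held for the p300 overlap of 7.69% (1 of 13) with a reciprocal overlap of 50%. It also held for the E-box share of 15.4% (2 of 13) with CAGCTG alone. The lists give no depth, so the authors' threshold could not be changed.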
